A study of Rattus norvegicus with 12 samples.

Results

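The enzymes that oxidise, reduce, hydrolyse and conjugate foreign and endogenous lipophilic compounds were followed in the rat hepatoma cell line FaO during exposure to α-lipoic acid (α-LA). Members were all probes on the array whose gene symbol belongs to the Cyp, Fmo, Aldh, Akr, Ces, Ephx, Ugt1, Ugt2, Sult, Gst and Mgst families (Cyp51 and Aldh18a1 left out), which gave 168 of 22523 probes and 157 genes. Of these, 86 probes of 83 genes reached a signal of 150 on at least 3 arrays and were tested. The other 82 probes were not tested, and 70 of them stayed under 150 on every array, among them the probes of Cyp2c11, Cyp3a2, Cyp3a23-3a1, Cyp7a1, Aldh3a1 and Gstm3. For those genes no level is given. The remaining 12 reached 150 on 1 or 2 arrays.

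Total RNA was hybridised to Illumina RatRef-12 beadchips, 1 array per sample, 12 in all. There were 3 control arrays, 7 arrays of cells given 500 µM α-LA, replaced daily in medium with low serum, for 6, 18, 24, 30, 42, 48 or 72 h (1 array each), and 2 arrays of cells given thapsigargin (TG) at 0.1 µM once. TG blocks the calcium pump of the endoplasmic reticulum (ER) and served as positive control for ER stress. Each sample pooled 3 culture wells of this single cell line; whether the control arrays came from separate experiments, when they were harvested and which vehicle they received are not stated, so the p-values measure the spread between these arrays only. The TG arrays are titled 18 and 24 h, whereas the treatment text gives 6 and 18 h, so their hours are quoted as titled and no time course is drawn from them. The 18, 24 and 30 h arrays form the early group and the 42, 48 and 72 h arrays the late group, a division that the study took from clustering these same arrays. Each early, late and TG array has its own hour, so change over time within a group enters the SD, SE and p-values. Signal is the deposited quantile-normalized fluorescence; whether background was subtracted is not stated, and since its lowest value was 88.3, changes of dim probes may be understated. Every change below is a difference of log2 signal with its standard error (SE) and a Benjamini-Hochberg adjusted p from limma over 9193 probes, called at 0.05.

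In liver, phase I enzymes (cytochromes P450, flavin monooxygenases, aldehyde dehydrogenases, aldo-keto reductases, carboxylesterases and epoxide hydrolases) expose or add reactive groups, and phase II enzymes (UDP-glucuronosyltransferases, sulfotransferases and glutathione S-transferases) attach glucuronic acid, sulfate or glutathione. Many are hepatocyte products whose genes are controlled by the receptors PXR, CAR and AhR and by the oxidative stress factor NRF2. Hepatoma lines are known for retaining part of this programme.

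Most of the changes were decreases. In the early group 39 of the 86 tested probes were lower than control and 6 were higher, whereas among all 9193 probes 15.7% were lower and 16.6% higher. In the late group 32 were lower and 8 higher, against 17.7% and 19.1% of all probes. With TG 44 were lower and 10 higher, against 18.7% and 19.2%. The median change of the enzyme probes was -0.26 early, -0.22 late and -0.48 with TG, beside 0.01, 0.02 and 0.01 for all probes. Decreases of at least 2-fold were called for 14 enzyme probes early, 13 late and 29 with TG, where 2.92%, 3.98% and 3.99% of all probes met that rule. Increases of that size were called for 4, 4 and 2, where 1.63%, 2.63% and 3.57% of all probes met it. Without the TG array titled 18 h the number called higher with TG was 5, and without the one titled 24 h it was 6. All 3 comparisons use the same control arrays. The shares of all probes given here are also the background for the family counts below. Since a probe could pass the signal filter through the group where it was bright, the 57 enzyme probes at 150 or above on all 12 arrays were counted separately: 28 were lower and 4 higher early, 23 and 3 late, and 33 and 8 with TG. Among all 6830 probes at 150 or above on every array, 17.4% were lower and 20.1% higher early, 19.2% and 22.8% late, and 21% and 23.1% with TG. Increases of 2-fold were called for 2, 0 and 1 of the 57, where 138, 215 and 301 of the 6830 met that rule. Decreases of 2-fold were called for 12, 11 and 26 of the 57, where 233, 314 and 320 of the 6830 met it.

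**Figure D1:**
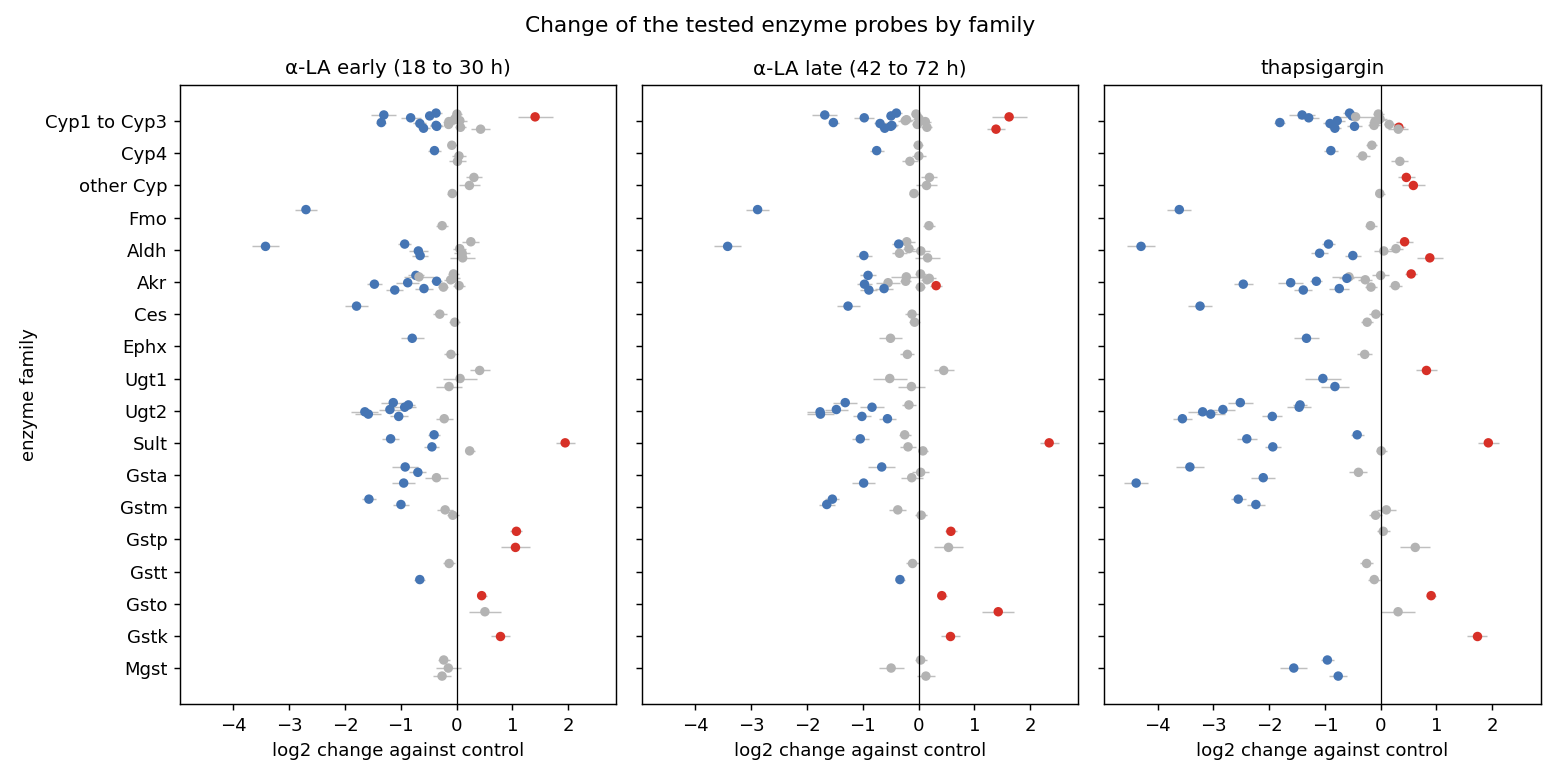
Log2 change against control (x axis) of the 86 tested enzyme probes by family (y axis) in the early α-LA group, the late α-LA group and with TG. Points are single probes, bars their standard error; blue marks probes called lower, red those called higher and grey those not called at an adjusted p of 0.05. The 8 Ugt2 probes all lie below -1.4 with TG.

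Phase I enzymes held the decreases that were deepest under α-LA. Aldh1a4, a cytosolic aldehyde dehydrogenase, gave 6730.3, 4231 and 5232 in the controls, 4231 at 6 h, 710.4, 433 and 392 at 18, 24 and 30 h, 528, 385 and 594 at 42, 48 and 72 h and 252 and 288 with TG. Every array from 18 h on was far below every control, and the TG arrays were the lowest. The change was -3.42 (SE 0.24, adjusted p = 2.8e-06) early, -3.42 (SE 0.24, adjusted p = 1.4e-06) late and -4.30 (SE 0.25, adjusted p = 1.5e-07) with TG. Fmo1, the flavin monooxygenase that oxygenates nitrogen and sulfur atoms of drugs, read 4114, 3112 and 3295 in the controls and 2246 at 6 h, then 710.0, 585 and 371, 538, 440.1 and 441 and 270.2 and 301 in the early, late and TG arrays. It was already below the controls at 6 h and showed no overlap with them later. Its change was -2.70 (SE 0.20, adjusted p = 5e-06) early, -2.89 (SE 0.20, adjusted p = 1.6e-06) late and -3.61 (SE 0.22, adjusted p = 1.7e-07) with TG. The other tested monooxygenase, Fmo4, was not called against control in any group.

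Among the 18 tested probes of the drug-metabolising P450 families Cyp1 to Cyp3, 9 were lower and 1 higher early, 9 and 2 late, and 9 and 1 with TG. That was 50% lower each time, beside 15.7%, 17.7% and 18.7% of all probes. Only 4 of the 18 were at 150 or above on all 12 arrays. Cyp2c12 reached 150 on 3 arrays, the controls, and Cyp3a18 on 4, the controls and 6 h. Such probes passed the filter through the controls, so the count of decreases partly follows from the filter. Cyp2e1, which oxidises ethanol and small solvents, had signals of 361, 390.5 and 364 in the controls and 212 at 6 h. It read 150.3, 139.9 and 148 in the early arrays, 129, 119.5 and 139.6 in the late arrays and 102 and 110.1 with TG. The late and TG arrays were all under 150, so the decrease there was at least 2.48-fold in both, with adjusted p = 6.7e-07 and 8.1e-08 in limma. The early decrease was -1.35 (SE 0.09, adjusted p = 2.6e-06). Cyp2b3, of the 2B subfamily, went from 1228, 1029.5 and 1206 in the controls to 582, 507 and 344 early, 415, 249.8 and 446 late and 412 and 456 with TG, a change of -1.30 (SE 0.22, adjusted p = 0.001), -1.68 (SE 0.22, adjusted p = 0.00014) and -1.41 (SE 0.24, adjusted p = 0.00043). Cyp2c23, an arachidonic acid epoxygenase of the rat, also fell. It read 17709.7, 13522 and 12822 in the controls and 12899 at 6 h, and thereafter 8898, 10185 and 6126 early, 8099.9, 7372 and 6785 late and 6099 and 5794 with TG. All 8 later arrays were below all controls, with changes of -0.82 (SE 0.18, adjusted p = 0.0044), -0.97 (SE 0.18, adjusted p = 0.0012) and -1.29 (SE 0.19, adjusted p = 0.00014). The other members called lower in the early group were Cyp1b1, Cyp2c12, Cyp2f4, Cyp2r1, Cyp2t1 and Cyp3a18, with changes from -0.35 for Cyp2t1 to -0.66 for Cyp2f4. Of these, Cyp2c12 and Cyp3a18 were under 150 on all early and all late arrays, at least 1.21-fold and 1.37-fold lower in both groups. Cyp2f4 was under 150 on all late arrays, at least 1.44-fold lower, and the late changes of the other 3 ran from -0.40 for Cyp1b1 to -0.50 for Cyp2t1.

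The classical AhR targets Cyp1a1 and Cyp1a2 were not tested, since they reached 150 on 2 arrays and 1 array. Cyp1a1 read 176 at 42 h and 466 at 72 h, and between 115 and 148 on the other 10 arrays. Cyp1a2 read 222 at 72 h and at most 137 elsewhere. Both were thus highest on the single 72 h array, which has no replicate, and these genes were picked after their values were seen.

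A pair of P450 probes went up. Cyp2c22, another 2C enzyme, was near the detection floor in the controls at 181, 159.8 and 154, and at 6 h (171). It read 450.1, 244 and 761 in the early arrays and 612, 544 and 391 in the late arrays, all above the controls, but 117 and 124 with TG, below them. Its change was 1.41 (SE 0.32, adjusted p = 0.0052) early and 1.62 (SE 0.32, adjusted p = 0.0018) late, while the TG change of -0.45 was not called (adjusted p = 0.33). Set directly against the early arrays, the TG arrays were lower by at least 2.91-fold (limma adjusted p = 0.0013). Cyp3a9, a 3A enzyme, rose later. Its signals were 146, 138 and 151 in the controls, 174, 192 and 223 in the early group and 412, 473 and 279.5 in the late group. The late arrays stood above all others, by 1.39 (SE 0.17, adjusted p = 6.8e-05) over control and by 0.96 (SE 0.17, adjusted p = 0.0048) over the early group. The early change of 0.43 (adjusted p = 0.072) and the TG change of 0.32 (adjusted p = 0.2) were not called.

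Among the fatty acid P450s, the probe of Cyp4f1, a fatty acid ω-hydroxylase, was the only one of 4 tested Cyp4 probes called in the comparisons with control. It stood at 1574, 1604 and 1649.5 in the controls, 1106 at 6 h, 1218, 1304 and 1154 early, 1152, 943 and 804 late and 858 and 874 with TG, so that 72 h was the lowest array. Its change was -0.75 (SE 0.12, adjusted p = 0.00056) late and -0.89 (SE 0.13, adjusted p = 0.00013) with TG. The early change of -0.40 (adjusted p = 0.028) was lost when any single control, the 18 h or the 30 h array was left out. None of the 3 other tested Cyp probes was called with α-LA. With TG 2 of the 3 were higher, beside 19.2% of all probes. Cyp27a1, the mitochondrial sterol 27-hydroxylase, was 0.59 higher with TG (adjusted p = 0.041), a call that depended on each TG array and on controls 1 and 3, and Cyp20a1 was 0.46 higher (adjusted p = 0.029).

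Aldehyde dehydrogenases other than Aldh1a4 showed smaller and mixed changes. Of 8 tested probes, 4 were lower early, 3 late and 4 with TG, and 2 were higher with TG. The shares lower were 50%, 37.5% and 50%, beside 15.7%, 17.7% and 18.7% of all probes. The 25% higher with TG was near the 19.2% of all probes. Aldh3a2, which oxidises fatty aldehydes, read 1395, 1591 and 1764 in the controls, 1181, 968 and 825 early, 1418, 1459 and 2058 late and 1783 and 1508 with TG. Only the early arrays lay below the controls (-0.68 with SE 0.17 and adjusted p = 0.0083), and the late group exceeded the early group by 0.72 (SE 0.17, adjusted p = 0.015), a call lost without the 30 h array. Aldh7a1, an enzyme of lysine degradation, went the other way in time. It fell from 2909.8, 3279.6 and 2831 in the controls to 1770.4, 2328 and 1691 early and 1685, 1582 and 1317 late, with the lowest signal at 72 h, a change of -0.65 (SE 0.14, adjusted p = 0.0036) and then -0.98 (SE 0.14, adjusted p = 0.00019). Its TG change of -0.50 (adjusted p = 0.015) was lost without control 2 or either TG array. Aldh1a1, the retinal dehydrogenase, was at 247, 278 and 272 in the controls and under 150 on all early arrays, at least 1.77-fold lower (limma adjusted p = 0.00013). In the late arrays it read 207, 181 and 238, a change of -0.36 against control (adjusted p = 0.033) that was lost without control 2, control 3, the 42 h or the 48 h array. Aldh9a1, of carnitine synthesis, was higher with TG. It read 2005, 1371 and 1316 in the controls and 3033 and 2633 with TG, a change of 0.88 (SE 0.24, adjusted p = 0.01) that was lost without the TG array titled 18 h. In the early group its 24 h array (2466) stood above 18 and 30 h (1436 and 1284).

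Of the 12 tested aldo-keto reductase probes, 6 were lower early, 4 lower and 1 higher late, and 6 lower and 1 higher with TG. The shares lower were 50%, 33.3% and 50%, beside 15.7%, 17.7% and 18.7% of all probes. Akr1c19 had signals of 1697, 1318 and 1539.6 in the controls and 1560.5 at 6 h. They were 574, 630.0 and 447 early, 694, 830.2 and 795 late and 234 and 320.5 with TG, with no array of the later groups near the controls. The change was -1.47 (SE 0.14, adjusted p = 2.2e-05) early, -0.97 (SE 0.14, adjusted p = 0.00025) late and -2.46 (SE 0.17, adjusted p = 4.9e-07) with TG. Akr7a3, which reduces aflatoxin dialdehyde in the rat, was at 3512, 4139.6 and 3539.5 in the controls and at 4888 at 6 h, above them. It then read 1463, 1859 and 1893 early, 1708, 1874 and 2523 late and 1392 and 1453 with TG, all below the controls, for changes of -1.11 (SE 0.15, adjusted p = 0.00024), -0.89 (SE 0.15, adjusted p = 0.00076) and -1.39 (SE 0.16, adjusted p = 2.3e-05). Akr1b8, an aldose reductase-like enzyme, separated the treatments. Its signals were 15417, 12098 and 13858 in the controls, 8115, 9813 and 7146 early, 6592, 6852 and 8699 late and 13367 and 14097 with TG. It was lower in both α-LA groups (-0.73 with SE 0.15 and adjusted p = 0.0027 and -0.91 with SE 0.15 and adjusted p = 0.00051), while the TG arrays lay among the controls and above the early group by 0.73 (SE 0.16, adjusted p = 0.0038). Akr1c14, a 3α-hydroxysteroid dehydrogenase, was lower early (-0.88 with SE 0.21 and adjusted p = 0.0073) and with TG (-1.61 with SE 0.22 and adjusted p = 7.9e-05). Akr1a1, a general aldehyde reductase, read 7519, 7579.5 and 7502 in the controls and 10960.4 and 11046 with TG, an increase of 0.55 (SE 0.10, adjusted p = 0.001), while its α-LA changes of -0.05 and 0.04 (adjusted p = 0.74 and 0.82) were not called. One probe of Akr1c12 was not called in any comparison, and its 24 h array (13785) was far under 18 and 30 h (36404 and 30759). The second tested Akr1c12 probe read 2117, 1874 and 1883 in the controls and 2071, 2115 and 1514 early. It read 2218, 2250.5 and 2225 late, above the controls, and 1239 and 1331 with TG, below them. Its 24 h array was not low.

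The hydrolases were represented by few detected probes. Ces1c, a carboxylesterase that cleaves ester drugs and lipids, read 3228, 3005 and 3056 in the controls and 3550.3 at 6 h. Its signals were 1175, 853 and 712 early, 1083, 1094 and 1801 late and 309 and 349 with TG. They fell through 30 h and were higher at 72 h than at 42 and 48 h, without reaching the controls. The change was -1.79 (SE 0.21, adjusted p = 7.5e-05) early, -1.26 (SE 0.21, adjusted p = 0.00054) late and -3.24 (SE 0.22, adjusted p = 4.9e-07) with TG, whereas Ces2c and Ces2g were not called in any comparison with control. Ephx1, the microsomal epoxide hydrolase, was at 1868, 1448 and 1403 in the controls, 1101, 817 and 810.2 early, 849, 1009 and 1558 late and 629.8 and 611 with TG. The early (-0.79 with SE 0.21 and adjusted p = 0.012) and TG (-1.33 with SE 0.22 and adjusted p = 0.00036) changes were called, and the late one of -0.50 was not (adjusted p = 0.079), with the 72 h array inside the control range.

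The UDP-glucuronosyltransferases of family 2 fell nearly throughout. Of 8 tested Ugt2 probes, 7 were lower early, 7 late and 8 with TG, with median changes of -1.09, -1.17 and -2.67, and all 8 TG decreases were at least 2-fold. The shares lower were 87.5%, 87.5% and 100%, beside 15.7%, 17.7% and 18.7% of all probes, and 3.99% of all probes were 2-fold lower with TG. Ugt2b35 was read by 2 probes. The first gave 8562, 5935 and 7353 in the controls and 6592 at 6 h, then 2972, 2411 and 1945 early, 1689, 1785 and 3198 late and 899.8 and 844 with TG. No array after 6 h overlapped the controls, and the changes were -1.58 (SE 0.24, adjusted p = 0.00039), -1.76 (SE 0.24, adjusted p = 0.00014) and -3.05 (SE 0.25, adjusted p = 1.6e-06). The second probe changed by -1.64, -1.77 and -3.19. Ugt2b15, which conjugates steroids, read 3154, 2396 and 2807 in the controls, 2633 at 6 h, 1566, 1216 and 929 early, 928, 824 and 1294 late and 379 and 400.5 with TG, a change of -1.19 (SE 0.20, adjusted p = 0.00087), -1.47 (SE 0.20, adjusted p = 0.00016) and -2.83 (SE 0.21, adjusted p = 8.4e-07). The probe annotated Ugt2b changed by -1.13, -1.31 and -2.52, that of Ugt2b37 by -1.04, -1.02 and -1.94 and that of Ugt2b10_predicted by -0.93, -0.83 and -1.46. For Ugt2b, Ugt2b15 and Ugt2b35 the 72 h array was above the 42 and 48 h arrays and still below the controls.

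Ugt2b7, whose human namesake glucuronidates morphine and oestrogens, fell mainly with TG. It read 9402, 7265 and 8173 in the controls and 13858 at 6 h, the highest array. The early signals were 6983, 7046 and 7176, the late ones 4420.2, 5559 and 7121 and those with TG 659.8 and 745. The early arrays reached just under the controls, the 42 and 48 h arrays were lower and the TG arrays were lower than all others. The early change of -0.22 was not called (adjusted p = 0.32), the late change of -0.56 (SE 0.16, adjusted p = 0.014) was lost without control 1 or the 42 h array, and the TG change was -3.55 (SE 0.17, adjusted p = 4.3e-08). Against the early arrays the TG difference was -3.33 (SE 0.17, adjusted p = 1.9e-07). Ugt2b1, which glucuronidates morphine in the rat, was lower early (-0.86 with SE 0.13 and adjusted p = 0.00034) but not called late, and was under 150 with TG, at least 2.42-fold below control (limma adjusted p = 3.4e-06). These genes are close copies of each other, the probe sequences were not examined, and a probe may read more than 1 of their transcripts; this holds equally for the Gsta, Gstm, Akr1c and Ugt1a probes.

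Because the Ugt2b probes fell together, the bases before their RefSeq start sites are shown (build GRCr8, plus strand of chromosome 14), with matches to the C/EBP motif TTGCNCAA, read on either strand, in capitals. Ugt2b35 lies at chr14:21208191-21208440, Ugt2b15 at chr14:21122616-21122865 and Ugt2b7 at chr14:21251285-21251534, each 250 bases that end at the base before the start.
Ugt2b35: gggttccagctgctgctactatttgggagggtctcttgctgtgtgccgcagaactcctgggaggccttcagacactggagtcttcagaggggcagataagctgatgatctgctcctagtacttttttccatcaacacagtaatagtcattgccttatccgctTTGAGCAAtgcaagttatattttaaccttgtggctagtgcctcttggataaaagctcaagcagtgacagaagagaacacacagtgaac
Ugt2b15: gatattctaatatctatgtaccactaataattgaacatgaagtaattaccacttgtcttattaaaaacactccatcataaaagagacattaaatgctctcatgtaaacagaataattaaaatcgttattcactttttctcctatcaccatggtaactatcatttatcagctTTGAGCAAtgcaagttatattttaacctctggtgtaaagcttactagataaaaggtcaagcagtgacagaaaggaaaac
Ugt2b7: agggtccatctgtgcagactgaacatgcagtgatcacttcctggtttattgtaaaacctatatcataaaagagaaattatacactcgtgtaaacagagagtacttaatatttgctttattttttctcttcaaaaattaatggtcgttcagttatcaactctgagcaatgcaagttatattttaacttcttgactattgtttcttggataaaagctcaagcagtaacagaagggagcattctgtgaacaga
The 300-base windows that run from 250 bases before to 50 after the start could be matched for 71 of the 83 tested genes. The motif was present in 6 of them (8.45%), against 2.72% of 27457 RefSeq promoters, and 4 of the 6 were the Ugt2b, Ugt2b15, Ugt2b35 and Ugt2b37 windows, where it began 67 to 88 bases before the start on the minus strand; the others were Cyp2d2 and Sult2a6. Ugt2b7 and Ugt2b1 had no match. The Ugt2b windows were 51.7 to 85.3% identical in pairs, so they are not independent sequences. The core of the antioxidant response element, TGACNNNGC, was in 11.3% of the enzyme promoters and 12.2% of all, and the xenobiotic response element core GCGTG in 29.6% and 31.1%. These promoters were chosen for display after 13 motifs had been searched, and a match is a description of letters only.

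Family 1 did not follow family 2 in count. None of the 3 tested Ugt1 probes was called with α-LA, and with TG 1 was higher and 2 lower, beside 19.2% and 18.7% of all probes. Ugt1a1, the bilirubin glucuronosyltransferase, read 965, 552 and 638 in the controls, of which the first was the highest, and 1259.8 and 1206 with TG, a change of 0.82 (SE 0.19, adjusted p = 0.0036). Ugt1a7c was at 3622, 2204 and 2014 in the controls and 1543 and 1324 with TG; its change of -0.82 (adjusted p = 0.02) was lost without control 1 or either TG array. The difference between the families was not tested.

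Of 5 tested sulfotransferase probes, 3 were lower and 1 higher early, and the same numbers held with TG, while late 1 was lower and 1 higher. The late shares of 20% each were near the 17.7% and 19.1% of all probes. Early and with TG 60% were lower and 20% higher. Among all probes 15.7% and 16.6% were so early, and 18.7% and 19.2% with TG. Only 1 of the 5 was at 150 or above on all arrays. Sult1c2, a phenol sulfotransferase, was the enzyme probe with the largest increase under α-LA. It was at the detection floor in the controls (151, 149 and 153), at 235 at 6 h, and then at 556, 758 and 470.5 early, 886, 816 and 621 late and 529 and 627 with TG. All arrays of treated cells, 6 h included, exceeded all controls. The changes were 1.95 (SE 0.17, adjusted p = 1.2e-05) early, 2.34 (SE 0.17, adjusted p = 1.8e-06) late and 1.93 (SE 0.18, adjusted p = 4.6e-06) with TG. Sult1b1, which sulfates phenols and thyroid hormone, fell instead. Its signals were 922, 710.0 and 726 in the controls, 642 at 6 h, 384, 375 and 284 early, 341, 349 and 454 late and 130.2 and 168 with TG, for changes of -1.18 (SE 0.16, adjusted p = 0.00017), -1.04 (SE 0.16, adjusted p = 0.00029) and -2.40 (SE 0.18, adjusted p = 7.6e-07). Sult2a6, a hydroxysteroid sulfotransferase, was clearly lower with TG, where it read 175 and 160.3 against 627, 594 and 706 in the controls (-1.93 with SE 0.15 and adjusted p = 8.5e-07). Its early change of -0.44 (adjusted p = 0.027) was lost without control 1, control 3, the 18 h or the 30 h array. Sult1a1 was near 150 throughout and was under 150 on all early arrays, a decrease of at least 1.15-fold (limma adjusted p = 0.013) that was lost without control 1 or 3.

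Glutathione S-transferases divided by class. In class alpha, 3 of 4 tested probes were lower early, 2 late and 3 with TG, beside 15.7%, 17.7% and 18.7% of all probes. Gsta5, which conjugates aflatoxin epoxide in the rat, had the largest change with TG of all enzyme probes. It read 21045, 21840.5 and 22287 in the controls and 23444 at 6 h. The early signals were 14429.8, 9304 and 10653, the late 9382, 8983 and 15669.7 and the TG signals 999.9 and 1084. The early and late arrays lay below the controls, with 18 and 72 h as the highest of them, and the TG arrays were far below all others. The changes were -0.95 (SE 0.20, adjusted p = 0.0042) early, -0.98 (SE 0.20, adjusted p = 0.0027) late and -4.38 (SE 0.22, adjusted p = 4.8e-08) with TG, and the difference of TG from the early group was -3.44 (SE 0.22, adjusted p = 8.4e-07). Gsta2 followed the same order, with 3399, 3531 and 3242 in the controls, 4685 at 6 h, 2248, 1568 and 1629.5 early, 1778, 1616 and 3427 late and 303 and 331 with TG. Its 72 h array was inside the control range and its 6 h array above it. The early change was -0.92 (SE 0.24, adjusted p = 0.011) and the TG change -3.42 (SE 0.25, adjusted p = 7.6e-07); the late change of -0.66 (adjusted p = 0.047) was lost without any 1 control, the 42 h or the 48 h array. Gsta4, which conjugates the lipid peroxidation product 4-hydroxynonenal, was not called with α-LA (-0.36 early, adjusted p = 0.2; -0.12 late, adjusted p = 0.68). With TG it read 156 and 178 against 697, 780.3 and 675 in the controls (-2.10 with SE 0.21 and adjusted p = 7.4e-06). Gsta3 was lower early, by -0.69 (SE 0.15, adjusted p = 0.0048), its late and TG changes of 0.04 and -0.40 were not called (adjusted p = 0.88 and 0.071), and the late group exceeded the early by 0.73 (SE 0.15, adjusted p = 0.01).

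In class mu, Gstm1 and Gstm2 fell and Gstm4 and Gstm5 were not called in any comparison with control. Gstm1, an abundant liver transferase, read 22449, 20309 and 19579 in the controls and 18115 at 6 h, below them. The early signals were 6773, 8507 and 5923, the late 7056, 7159 and 7094 and the TG signals 3596 and 3476. The 3 late arrays were nearly equal, without a return at 72 h, and the changes were -1.57 (SE 0.12, adjusted p = 6.8e-06), -1.55 (SE 0.12, adjusted p = 3.6e-06) and -2.55 (SE 0.13, adjusted p = 6.5e-08). Gstm2 read 2468, 2263 and 2259.5 in the controls, 1159.8, 1336 and 1027 early, 902, 601 and 760.5 late and 464 and 525 with TG. It continued to fall from the early to the late group (-0.65 with SE 0.14 and adjusted p = 0.014), with changes against control of -0.996 (SE 0.14, adjusted p = 0.00034), -1.65 (SE 0.14, adjusted p = 6.6e-06) and -2.24 (SE 0.16, adjusted p = 5.2e-07).

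Members of classes pi, omega and kappa went up. Gstp1, the class pi transferase known as a marker of rat liver preneoplastic foci, was read by 2 tested probes. The first gave 2171, 2514 and 2281 in the controls and 2238 at 6 h, 5426, 4414 and 4847 early, 3275, 3369.7 and 3761 late and 2282 and 2508 with TG. The early arrays were above all others, the late arrays between them and the controls, and the TG arrays among the controls. The changes were 1.07 (SE 0.11, adjusted p = 3e-05) early and 0.58 (SE 0.11, adjusted p = 0.0013) late, the TG change of 0.05 was not called (adjusted p = 0.8), and TG differed from the early group by -1.03 (SE 0.12, adjusted p = 5.2e-05). The second probe gave 8454, 10619 and 8018 in the controls and 13590.0, 29914 and 15962 early, with 24 h far above 18 and 30 h; its early change was 1.06 (SE 0.26, adjusted p = 0.0083), and its late change of 0.54 (adjusted p = 0.13) and TG change of 0.62 (adjusted p = 0.091) were not called. The 250 bases before the Gstp1 start (GRCr8, minus strand, chr1:210769706-210769955) are shown because it was a conjugating enzyme that rose with α-LA, with the 1 match to the antioxidant response element core in capitals, beginning 61 bases before the start. The match describes letters only, and which factor binds there was not tested.
Gstp1: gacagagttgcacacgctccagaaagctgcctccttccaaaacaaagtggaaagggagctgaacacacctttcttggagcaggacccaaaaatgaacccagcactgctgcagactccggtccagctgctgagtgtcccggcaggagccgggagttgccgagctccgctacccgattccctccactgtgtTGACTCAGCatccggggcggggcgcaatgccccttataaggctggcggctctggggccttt

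**Figure D2:**
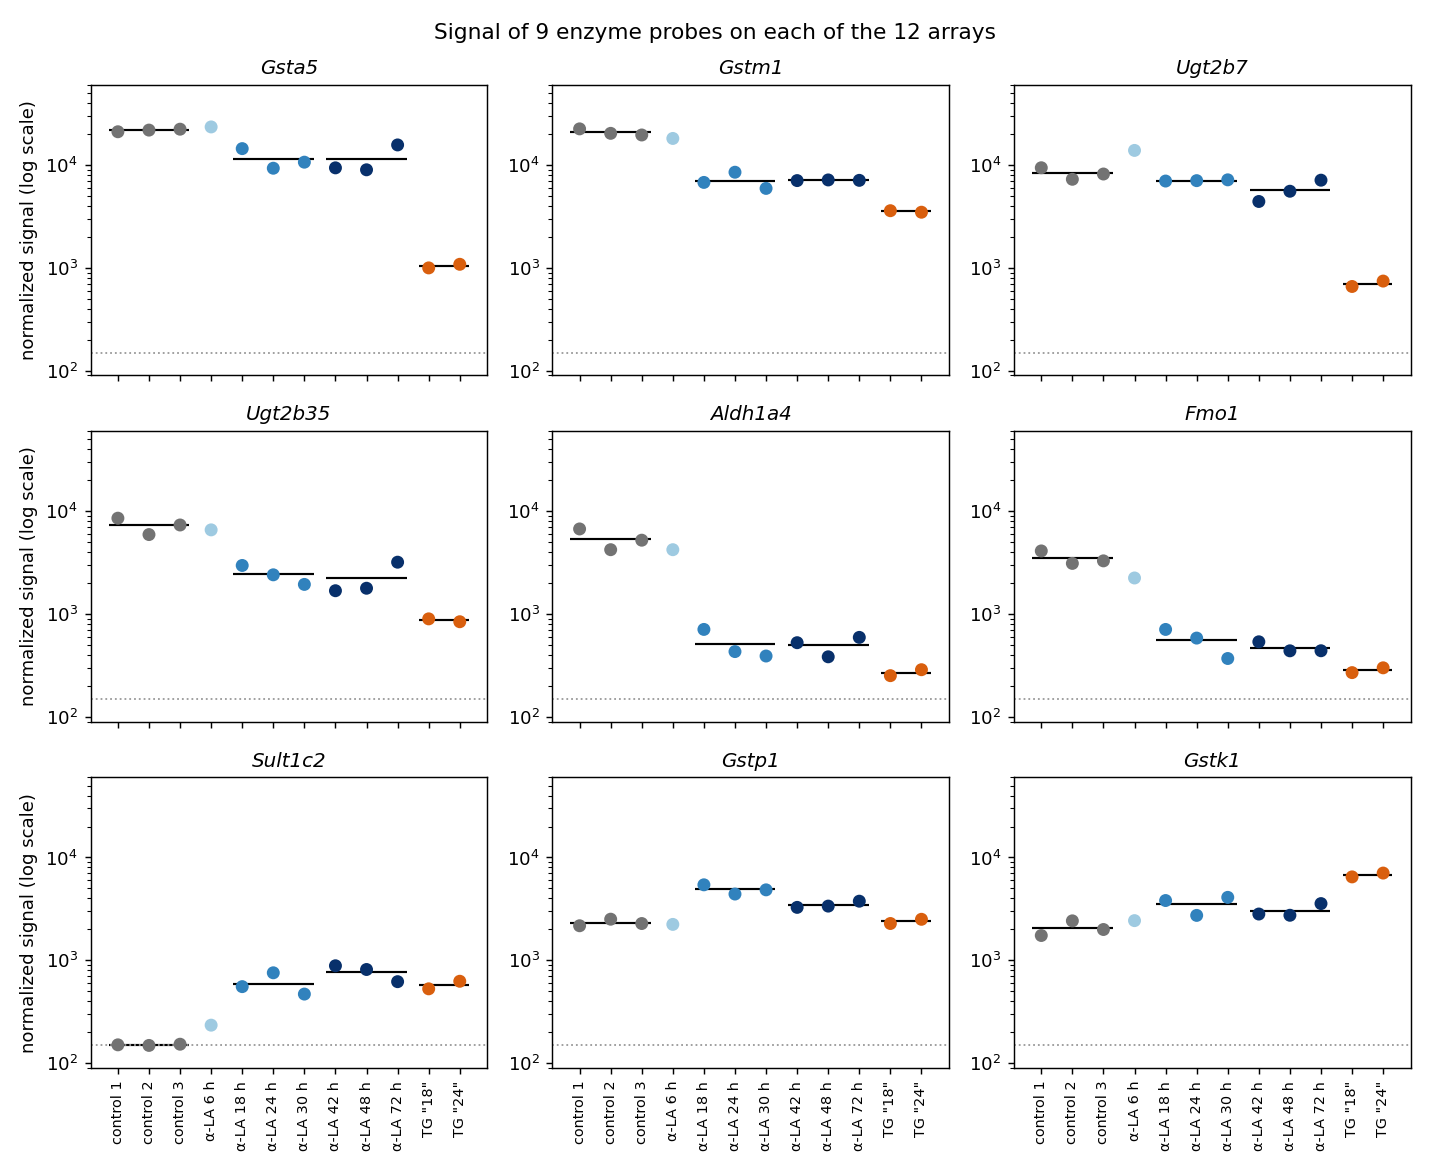
Normalized signal (y axis, log scale) of 9 enzyme probes on each of the 12 arrays (x axis), with controls in grey, α-LA at 6 h in light blue, the early and late groups in mid and dark blue and TG in orange. Horizontal lines are group means and the dotted line is the signal of 150. Gsta5 and Ugt2b7 are far lower with TG than with α-LA, Aldh1a4 and Fmo1 are low in both, and Gstp1 is highest in the early group.

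Gstk1, the mitochondrial and peroxisomal class kappa transferase, read 1745, 2422 and 1996 in the controls, 2434 at 6 h, 3817, 2736 and 4098 early, 2822, 2745 and 3565 late and 6478 and 7056 with TG. All arrays from 18 h on were above the controls, and the TG arrays were the highest. The change was 0.78 (SE 0.17, adjusted p = 0.0044) early and 1.73 (SE 0.18, adjusted p = 9.8e-06) with TG, and TG exceeded the early group by 0.95 (SE 0.18, adjusted p = 0.0019); the late change of 0.57 (adjusted p = 0.02) was lost without control 1, control 3 or the 72 h array. Gsto1, a thioltransferase and dehydroascorbate reductase, rose from 4798, 4815 and 5128 in the controls to 6821, 6785 and 6535 early, 7004, 6607 and 6086 late and 9010.2 and 9382 with TG, with no overlap and changes of 0.45 (SE 0.09, adjusted p = 0.0024), 0.42 (SE 0.09, adjusted p = 0.0032) and 0.90 (SE 0.10, adjusted p = 9.8e-06). Gsto2 was near 150 in the controls (142, 148 and 153) and reached 518, 552 and 219 in the late arrays (1.43 with SE 0.28 and adjusted p = 0.002), with 42 and 48 h far above 72 h. Gstt2, of class theta, was modestly lower early (-0.66 with SE 0.10 and adjusted p = 0.00035). The 3 membrane-bound transferases were not called with α-LA and were all lower with TG. Mgst1 read 20231, 17709.7 and 18285 in the controls and 9466 and 9848 with TG (-0.96 with SE 0.11 and adjusted p = 2.8e-05), and Mgst2 and Mgst3_predicted changed by -1.56 and -0.76.

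The time at which the changes appeared was read from the single arrays against the mean of the controls, without a test. At 6 h no enzyme probe differed by 2-fold, where 0.12% of all probes were higher and 0.0544% lower. At 6 h 18 of the 86 probes lay above all controls and 26 below, shares of 20.9% and 30.2% beside 25.9% and 28.6% of all probes. At least 2-fold lower were 11 enzyme probes at 18 h, 18 at 24 h, 21 at 30 h, 17 at 42 h, 17 at 48 h and 11 at 72 h, and 29 on each TG array. Among all probes these shares were 2.84%, 3.03%, 3.57%, 4.08%, 4.13%, 4.06%, 3.91% and 4.05%. At least 2-fold higher were 3 at 18 h, 2 at 24 h, 4 each at 30, 42 and 48 h, 2 at 72 h and 2 on each TG array, with 1.82%, 1.97%, 1.96%, 3.07%, 2.99%, 2.74%, 3.76% and 3.59% of all probes. No single control array had an enzyme probe 2-fold from the mean of the controls, and 0.359% of all probes were that much lower on control 1. Thus the number of 2-fold lower enzyme probes at 72 h equalled that at 18 h, while the share over all probes was 2.84% at 18 h and 4.06% at 72 h.

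**Figure D3:**
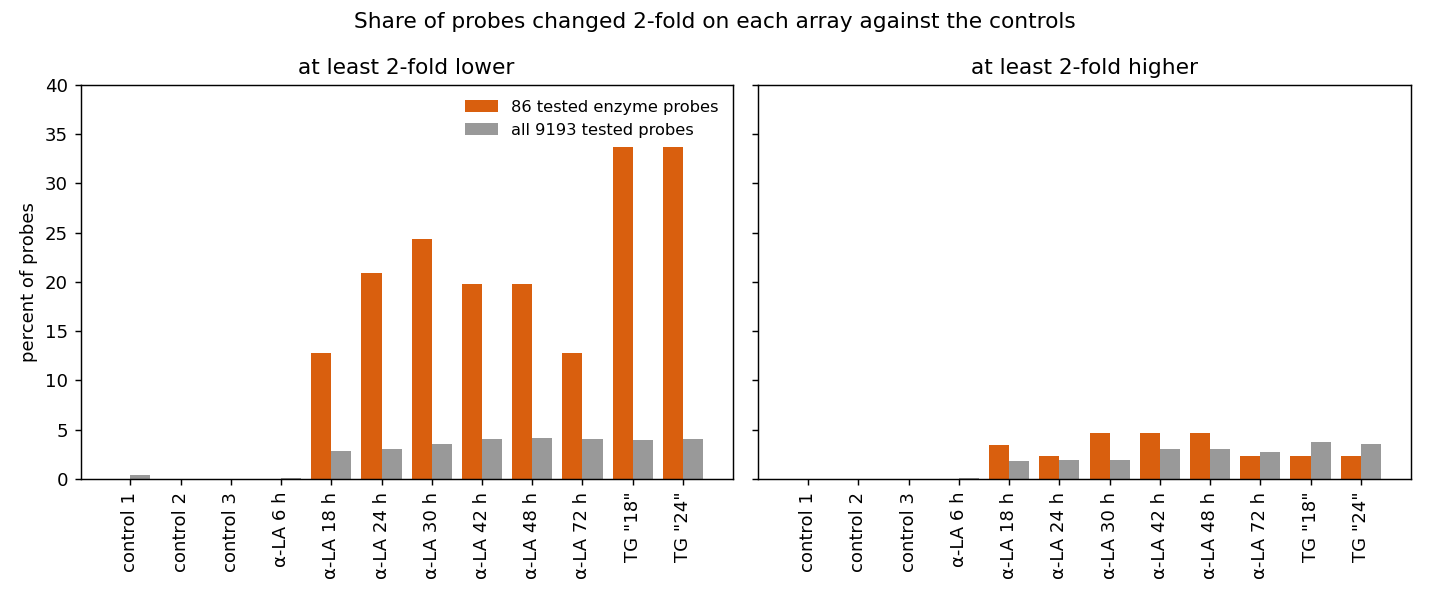
Percent of the 86 tested enzyme probes (orange) and of all 9193 tested probes (grey) at least 2-fold lower (left) or higher (right) than the mean of the controls on each array; each bar is 1 array, without replicates. For decreases the enzyme bars reach 24.4% at 30 h and 33.7% on both TG arrays, and are at 0 at 6 h.

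Of the 39 probes called lower early, 29 (74.4%) had a higher signal at 72 h than at both 42 and 48 h, beside 42.6% of the 1445 probes of the whole array called lower early. The 72 h array exceeded all 3 early arrays for 20 of the 39 (51.3%), beside 38.5%. Gsta2 and Ephx1 were back inside the control range at 72 h, whereas Aldh1a4, Fmo1 and Gstm1 were not, and Aldh7a1 and Cyp4f1 had their lowest signal then. This rests on a single array at 72 h. In the direct test of late against early, 8 enzyme probes were higher and 2 lower, where 6.43% and 7.23% of all probes were called. None of these changes reached 2-fold, where 0.435% of all probes were higher and 0.305% lower by that much. Without the 30 h array the numbers were 5 and 4, and without the 72 h array 4 were lower. The higher ones were Akr1c19, Aldh1a1, Aldh3a2, Cyp3a9, Fmo4, Gsta3, Gstt2 and Ugt2b1, and the lower ones Gstm2 and the first Gstp1 probe. Gstt2 lost its call without any 1 of the 6 arrays and Akr1c19 without any but the 24 h array, Aldh3a2 lost it without the 30 h array and Gstp1 without the 42 h array.

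The treatments were also compared directly, a contrast in which no control array enters. The 2 groups also differ in hours and in dosing, TG once and α-LA daily, which cannot be told apart from the compound. TG was lower than the early α-LA group for 32 of 86 enzyme probes and higher for 8, where 13.9% and 13.6% of all probes were called, and 17 of the 32 were at least 2-fold lower (1.75% of all probes) and none was 2-fold higher (1.68%). Without the TG array titled 18 h, 5 were higher. Ugt2 contributed 7 of 8 probes, Mgst 3 of 3 and Gsta 3 of 4 to the lower ones. Among enzyme probes not held under 150 in either group, the largest differences were those of Gsta5, Ugt2b7, Gsta2 (-2.50 with SE 0.25 and adjusted p = 2.4e-05) and Gsta4 (-1.75 with SE 0.21 and adjusted p = 9.3e-05).

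**Figure D4:**
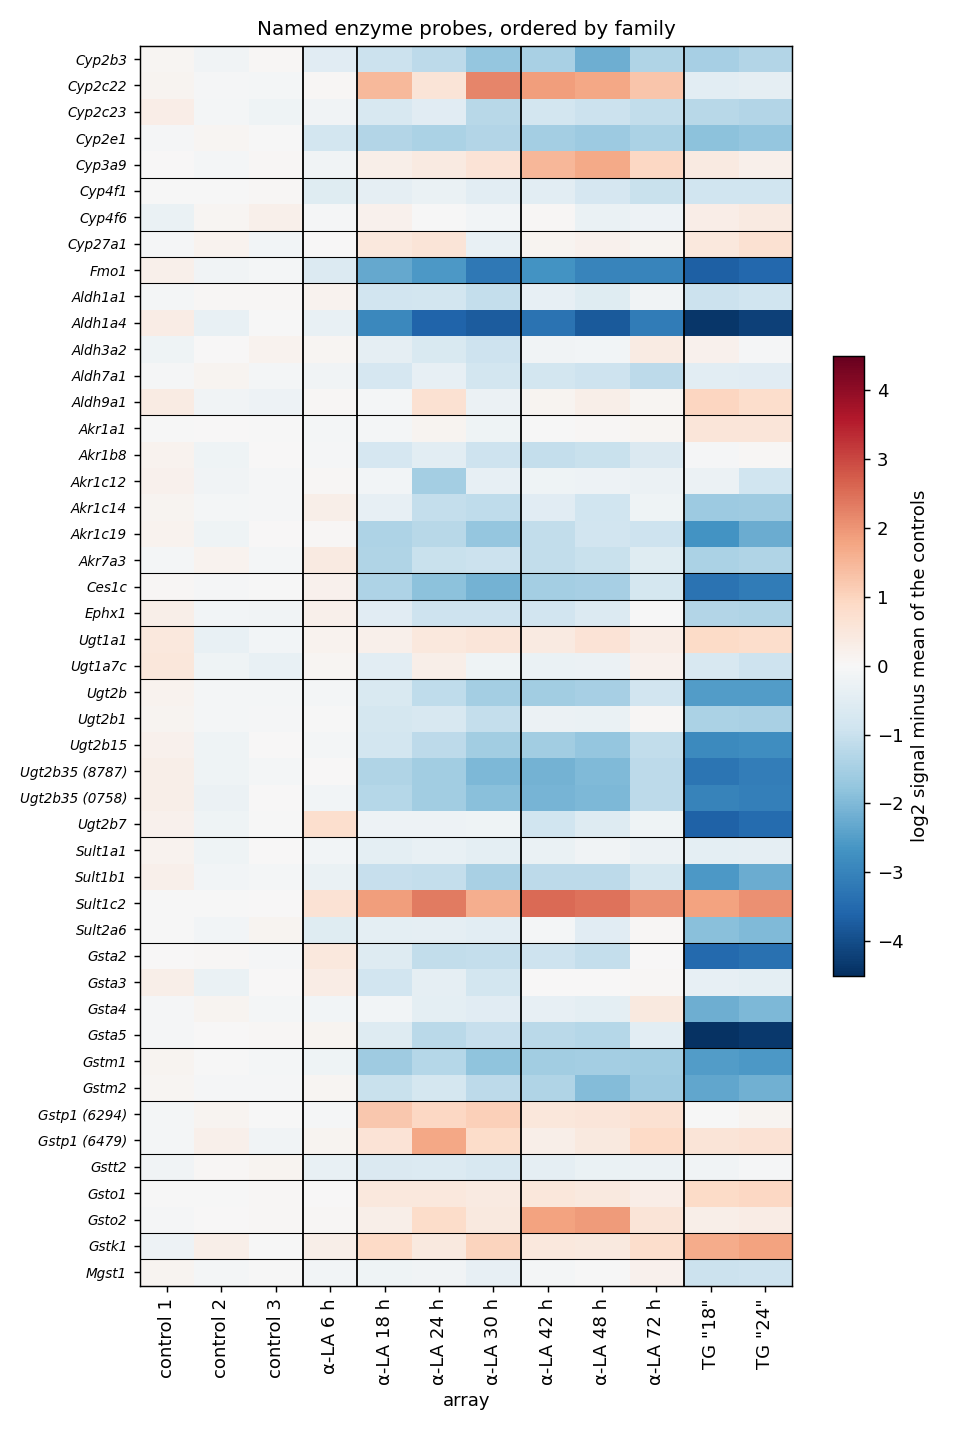
Log2 signal minus the mean log2 signal of the controls (colour) for the 47 named enzyme probes (rows, grouped by family, with the last 4 digits of the probe where a gene has more than 1) on the 12 arrays (columns). Blue is lower and red higher; the Ugt2b, Gsta2, Gsta4, Gsta5, Ces1c, Fmo1 and Aldh1a4 rows are darkest on the TG arrays, and the Cyp2c22, Cyp3a9 and Gsto2 rows are red on α-LA arrays.

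The regulators of these families were examined in lists from general knowledge. Of 14 tested receptors and partners, 5 were higher and 3 lower early, 6 and 5 late, and 3 and 5 with TG. Those shares were 35.7% and 21.4% early, 42.9% and 35.7% late, and 21.4% and 35.7% with TG. Among all 9193 probes 16.6% were higher and 15.7% lower early, 19.1% and 17.7% late, and 19.2% and 18.7% with TG. Ahr, the dioxin receptor, had a mean signal of 234 ± 3.9 (SD, n = 3) in the controls, 451 ± 91.8 early, 673 ± 96.6 late and 518 ± 36.5 with TG (n = 2). Its changes were 0.93, 1.52 and 1.15 (limma adjusted p = 0.00065, 1.4e-05 and 9.4e-05). Mafk, a small Maf partner of NRF2, changed by 1.31, 2.02 and 1.84 (adjusted p = 7.1e-05, 2e-06 and 2.4e-06), and Mafg by 0.78, 0.83 and 0.38. Nfe2l2, which encodes NRF2, and Nr1i2, which encodes PXR, are among the 14 and were picked for naming after their values were seen. Nfe2l2 changed by -0.42, -0.32 and -1.01 (adjusted p = 0.015, 0.048 and 2.8e-05), and Nr1i2 by -0.03 and -0.14 without a call and by -0.62 with TG (adjusted p = 0.00016).

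Members were also grouped by the factor listed as inducing them, from general knowledge, with 1 probe per gene, the brightest. Whether these factors act on the listed genes in FaO cells was not tested. The lists overlap, with Gsta2 in each. Ugt1a6 and Ugt1a7c are in the NRF2 and AhR lists. Aldh1a1 and Ephx1 are in the NRF2 list and the PXR and CAR list. Their counts are therefore not separate results. Of all 9193 probes, 15.7% were lower and 16.6% higher early, 17.7% and 19.1% late, and 18.7% and 19.2% with TG. Of 16 tested members known as NRF2 targets, 10 were lower and 1, the second Gstp1 probe, higher early, 8 were lower and none higher late, and 13 were lower and none higher with TG, with medians of -0.71, -0.51 and -1.18. The other Gstp1 probe, which the list leaves out, was higher late by 0.58 (adjusted p = 0.0013). Of 10 listed as PXR and CAR targets, 7 were lower early, 5 lower and 1 higher late, and 7 lower and 1 higher with TG. Cyp2b3, lower each time, was listed with other 2B genes, and whether these receptors induce Cyp2b3 itself was not checked. Of 4 known as AhR targets, 2, 2 and 4 were lower and none was higher, with Cyp1a1 and Cyp1a2 not among those tested. Of 12 genes for electron donors and cofactors, 2 were higher and 2 lower early (16.7% each), 3 and 1 late (25% and 8.33%), and 0 and 6 with TG (0% and 50%). The early shares were near those of all probes. Gclc, the rate-limiting enzyme of glutathione synthesis, had means of 4043 ± 433 in the controls, 7676 ± 178 early, 6074 ± 414 late (SD, n = 3 each) and 2375 ± 197 with TG (n = 2), with changes of 0.93, 0.59 and -0.77 (limma adjusted p = 5.1e-05, 0.00072 and 0.00013). Ugp2, which makes UDP-glucose, was 0.90 higher late (adjusted p = 0.00021), and Por, the electron donor of the P450s, 0.27 higher late (adjusted p = 0.025). Of 17 other phase I and II genes, 2 were higher and 6 lower early (11.8% and 35.3%), 4 and 6 late (23.5% and 35.3%), and 3 and 9 with TG (17.6% and 52.9%). Among these Glyatl1, an amino acid conjugating enzyme, changed by -1.52 early and -1.35 late and was under 150 with TG (mean 141 ± 7.1, n = 2), Bphl, a serine hydrolase, by -1.01 late, and Maoa, the monoamine oxidase, by 0.96 late.

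The summed hepatocyte markers were also below the controls in the early, late and TG groups, but single markers did not all follow. Serpina1 had means of 1319 in the controls, 623 early, 466 late and 885 with TG. The summed signal of 8 hepatocyte markers on the array was 91524 to 111700 in the controls, 60654 to 79328 early, 53450 to 75730 late and 41505 to 41674 with TG, while Ahsg, a plasma protein gene, had means of 24085, 28122, 23511 and 23394. Hnf4a and Apoh did not reach 150 on any array. None of the 8 stellate cell, macrophage and endothelial markers on the array was tested, and of 5 cholangiocyte markers only Sox9 was. The part of the marker change in the enzyme results was not tested, and in these bulk samples fewer cells with a transcript and less transcript per cell cannot be told apart. Arrays of a group were not equally alike, probe by probe. Control 1 stood apart from controls 2 and 3 (SD of log2 differences 0.256 and 0.229, against 0.142 between the latter). The 24 h array stood apart from 18 and 30 h (0.294 and 0.299, against 0.23). No pair of arrays within a group was a duplicate. Pairs across groups and pairs with the 6 h array were not compared.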

How the data were processed

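Intensity values of 12 Illumina RatRef-12 beadchips were used as deposited: the authors loaded scanner intensities into BeadStudio 3.0.19.0 (per the submitters' processing notes) and applied quantile normalization in BRB-ArrayTools; whether background was subtracted is not stated, and the values ranged from 88.3 to 55971 with array medians of 132.7 to 132.8. A table of signals before normalization was not used, because its 24 per-sample columns carry names that match no sample. Gene symbols came from the platform annotation (13793 probes) and otherwise from the study's gene table (1682 probes); 7048 probes had no symbol. Of the members, 164 were named by the first and 4 by the second source, and none had several symbols.

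Signals were log2-transformed and fitted with lmFit and eBayes of limma 3.58.1 (R 4.3.3) over the 9193 probes at 150 or more on at least 3 arrays, with Benjamini-Hochberg adjustment over all of them. α-LA comparisons used 3 groups and TG comparisons 4, so that the 2 TG arrays share the spread of the other groups; the 6 h array entered no test. Where a group lay under 150 on all arrays, the change of a named enzyme is given as a lower bound, from the mean of the brighter group on the log2 scale against 150. Per array 8409 to 8422 probes reached 150; the number of arrays limits the precision. The fit was tested on simulated data.

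Members and gene lists were chosen with earlier results of these data known. Named were, per family, up to 4 probes with the largest called α-LA change and the one with the highest mean signal, the 5 largest called rises and falls for TG against control, late against early and TG against early, and up to 3 genes per list with the largest called late change. Other members are given by counts and ranges, except those named to complete a count or family or after their values were seen. Promoter windows were RefSeq's (GRCr8), the first listed per gene, searched with Python 3.11.15 on both strands; identity was taken from global alignment with Biopython 1.88. Alternatives changed the filter, the background, the centring, the prior, the groups in the fit and single arrays.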

Additional observations from a re-analysis of the deposited data

Results flagged for a closer look

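Between the early and the late α-LA group, 9 named enzyme probes differed in the direct limma test of late minus early, and each is given with its changes against control in the early and then the late group. Cyp3a9 was 0.96 higher late (adjusted p = 0.0048), with changes of 0.43 and 1.39. Gsta3 was 0.73 higher (adjusted p = 0.01; -0.69 and 0.04), Aldh3a2 0.72 higher (adjusted p = 0.015; -0.68 and 0.04) and Ugt2b1 0.69 higher (adjusted p = 0.0058; -0.86 and -0.17). Aldh1a1 had a fitted difference of 0.57 (adjusted p = 0.0095), but it was under 150 on all early arrays, so it was at least 1.38-fold higher late; against control it was at least 1.77-fold lower early and changed by -0.36 late. Akr1c19 was 0.50 higher (adjusted p = 0.036; -1.47 and -0.97) and Gstt2 0.32 higher (adjusted p = 0.046; -0.66 and -0.33). In the other direction Gstm2 was lower late by -0.65 (adjusted p = 0.014; -0.996 and -1.65) and the first Gstp1 probe by -0.49 (adjusted p = 0.012; 1.07 and 0.58). The early and late groups were formed by the study from clustering of these arrays, and the late group holds a 72 h array that lay apart from 42 and 48 h (SD of log2 differences 0.28 and 0.284, against 0.176 between the latter). The part of that array in these differences was not tested beyond leaving it out, which ended the calls of Akr1c19 and Gstt2. No group has the 4 or more arrays needed to screen for single outlying arrays.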

How the results depend on the processing

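No call turned direction under any alternative tried. Testing only probes with a median signal over 300, which leaves 52 enzyme probes, gave 4 higher in late against control (8 in the main setting) and 4 higher in late against early (8). With TG added to the fit, 4 were lower in late against early (2). Leaving out 1 array at a time, the counts were 6 to 7 higher and 32 to 38 lower for early against control, 6 to 8 and 26 to 38 for late against control, 5 to 9 and 2 to 4 for late against early, 5 to 9 and 39 to 45 for TG against control, and 5 to 9 and 23 to 33 for TG against early. Of 140 calls of named probes, 116 were kept under all alternatives, and 83 of 1668 values missed the threshold. No paired analysis was possible because only the control labels carry replicate numbers. The 2 or 3 arrays a group limit the precision, and changes of dim probes may be understated near the lowest deposited signal of 88.3. Updating symbols through gene identifiers left the 168 members as they were.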
